A study of Mus musculus with 50 samples.

Results

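The genes described here are 10 that sensory neurons are known to switch on or change after their axon is cut: Atf3, Gadd45a, Sprr1a, Gap43, Gal, Npy, Vip, Npy2r, Bdnf and Csf1. They were taken by name, as all probe sets annotated to these symbols, which gave 14 of the 45037 probe sets that are no controls, and 10 of 18193 named genes. The arrays measured dorsal root ganglia, the ganglia beside the spinal cord that hold the cell bodies of sensory neurons, from 25 inbred mouse strains. Each strain gave 1 male and 1 female array, and each array carried RNA pooled from 3 mice. All mice were 2 months old, wildtype and naive, so that no group was injured or treated, and sex and strain are the only conditions. Levels are given as the log2 of the deposited intensity + 1, and a strain value is the mean of its male and female array with the SD over these arrays. The ganglia carried the sensory neuron markers of a fixed list: all 7 of the 8 markers that the probe table names were tested, with mean levels from 9.36 for Scn10a, a sodium channel of nociceptors, to 13.13 for Uchl1, a neuronal ubiquitin hydrolase. In whole ganglia, fewer cells of a type and less RNA per cell cannot be told apart.

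An injured sensory neuron changes its program from transmission to survival and regrowth. Atf3, a stress-induced transcription factor, is nearly silent in intact sensory neurons and is widely used as a marker of axotomy. It is followed by growth proteins such as Sprr1a and Gap43, by the neuropeptides galanin, NPY and VIP, and by secreted signals such as CSF1, which acts on microglia and macrophages. In ganglia that were not deliberately injured, the arrays give the resting level of each gene and show which samples, if any, carry several of them high at once.

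Promoter sequences of the 3 members that stood highest together in single arrays are shown because injury-induced transcription factors act at such elements. The RefSeq promoter table (GRCm38.p6), with windows of 250 bases before to 50 bases after the transcription start, held 9 of the 10 members (all but Gap43). Windows were searched on both strands for TGANTCA, the binding motif of AP-1 (the Jun, Fos and Atf3 family of factors), and for TGACGT, the core of the cAMP response element, and matches are in capitals. The window of Sprr1a (chr3:92485832-92486131, minus strand) held 2 TGANTCA matches, 146 to 140 and 116 to 110 bases upstream of the start. That of Atf3 (chr1:191183284-191183583, minus strand) held 1 TGACGT match, read as its reverse complement ACGTCA, 8 to 3 bases upstream, and that of Gal (chr19:3414495-3414794, minus strand) held no match to either. Of the other members, Vip, which lay near the floor of the signal on all arrays, held 1 TGACGT match. Bdnf had 7 windows, 1 with a TGANTCA match and another with a TGACGT match. Npy, Csf1, Gadd45a and Npy2r held no match. Over all 32851 windows of the table, 7.81% held TGANTCA and 7.51% held TGACGT. A link between the matches and the levels was not tested. The sequences, 5′ to 3′ in the direction of the gene, are:
Sprr1a: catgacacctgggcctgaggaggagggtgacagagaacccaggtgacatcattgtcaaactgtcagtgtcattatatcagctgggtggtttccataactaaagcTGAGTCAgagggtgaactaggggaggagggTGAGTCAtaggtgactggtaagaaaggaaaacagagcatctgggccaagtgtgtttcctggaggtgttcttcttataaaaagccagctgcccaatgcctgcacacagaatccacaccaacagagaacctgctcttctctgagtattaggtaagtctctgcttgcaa
Atf3: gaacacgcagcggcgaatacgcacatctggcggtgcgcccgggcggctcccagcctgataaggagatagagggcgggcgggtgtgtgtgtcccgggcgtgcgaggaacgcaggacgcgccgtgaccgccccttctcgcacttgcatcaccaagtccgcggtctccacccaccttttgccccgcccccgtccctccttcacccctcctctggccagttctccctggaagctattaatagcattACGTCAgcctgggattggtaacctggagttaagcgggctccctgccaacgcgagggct
Gal: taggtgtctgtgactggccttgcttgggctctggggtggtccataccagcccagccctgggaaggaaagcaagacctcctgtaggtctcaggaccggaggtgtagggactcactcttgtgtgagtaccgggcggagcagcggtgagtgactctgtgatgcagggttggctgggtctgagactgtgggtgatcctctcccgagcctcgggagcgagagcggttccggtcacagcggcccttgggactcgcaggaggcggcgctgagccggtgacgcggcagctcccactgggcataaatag

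All 50 arrays had similar depth, with 18703 to 19327 probe sets above a level of 4. Tests covered the 22205 probe sets that exceeded 4 on 2 arrays or more, and 11204 genes, each gene through its brightest probe set. Of the 10 members 9 were tested. Vip, the vasoactive intestinal peptide that injured sensory neurons release, lay between 2.69 and 2.90 on all arrays, with a median of 2.78, and was not tested. Sprr1a and Npy passed only through the same 2 arrays, male SJL/J and male P/J, so that their presence among the tested genes is itself set by these arrays. Some arrays carried transcripts of both sexes. Male PL/J, male BTBT T+tf/J and male SWR/J carried Xist, an RNA of the inactive X chromosome, at 8.97, 7.78 and 6.73. They also carried the Y chromosome gene Eif2s3y, at 6.52, 6.67 and 7.32. Female SM/J carried Eif2s3y at 6.82 beside Xist at 9.43. Strain values of PL/J, BTBT T+tf/J, SWR/J and SM/J given below carry this limit. In the 3 male arrays in which members stood high together, Xist lay at 2.38 (SJL/J), 2.39 (P/J) and 4.98 (c57BL/6J). The lowest male value was 2.36 (BUB/BnJ), so male c57BL/6J lay well above the floor. Male NON/LtJ, NZW/LacJ and NOD/LtJ lay higher still, at 5.42, 5.27 and 5.19. After the mean of each sex was taken out, the arrays of a strain correlated across probe sets at 0.14 (P/J) to 0.69, and those of SJL/J at 0.50. In the female P/J array 16.9% of all tested genes lay 0.5 log2 units or more above the female median, so that this array itself stands apart.

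A joint rise of the injury genes was seen in 2 male arrays, to high levels in SJL/J and to low levels in c57BL/6J, with male P/J just short of the rule, and in no strain in both arrays. An array was counted when at least 5 of the 9 tested members lay 0.5 log2 units or more above the median of the 25 arrays of its sex. Male SJL/J met this with 7 members (Gal, Sprr1a, Atf3, Bdnf, Csf1, Npy and Gadd45a), of which 6 lay at least 1 unit above. Of all tested genes, 3.06% lay 0.5 or more and 0.571% lay 1 or more above their median in that array. Male c57BL/6J met it with 5 members (Gal, Sprr1a, Atf3, Bdnf and Npy), of which 2 by 1 unit or more, against 4.05% and 0.785% of all genes. Male P/J had 4 (Gal, Sprr1a, Atf3 and Npy), all by at least 1 unit, against 4.03% and 0.723% of all genes, and so fell just short. Next came female NOD/LtJ with 3 members (5.18% of all genes), then 7 arrays had 2, 17 had 1 and 22 had none. Sprr1a and Npy had to be high in male SJL/J and male P/J to be among the tested genes. Of the 7 other members, male SJL/J had 5 raised (4 by 1 unit or more), male c57BL/6J 3 (2 by 1 unit or more), and male P/J 2, both by 1 unit or more. The count has no test, since each strain has 1 array of each sex.

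**Figure D1:**
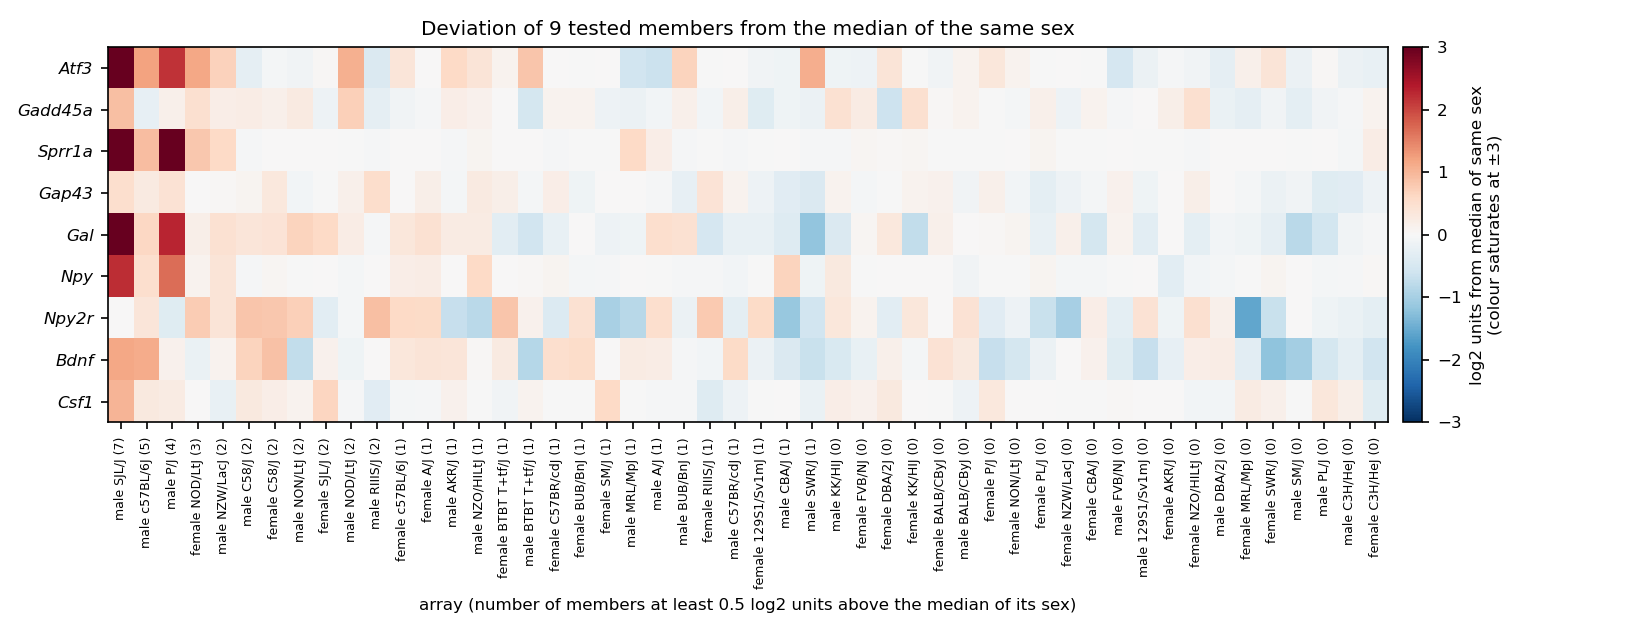
Each column is 1 of the 50 arrays, ordered by how many members were raised (number in brackets), and each row is 1 of the 9 tested members. Colour gives the log2 distance from the median of the 25 arrays of the same sex, saturating at 3 units. Male SJL/J and male P/J share the dark cells of Atf3, Sprr1a, Gal and Npy, which their female arrays lack.

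The count of male SJL/J held in each setting tried that kept the array (6 to 8 members raised when any other array was left out), whereas that of male c57BL/6J depended on settings. In male c57BL/6J, Sprr1a at 3.71 and Npy at 3.65 lay below the level of 4, only Atf3 and Bdnf were raised by 1 unit or more, and 3 members were raised with 16 in place of 1 added to the intensity before the logarithm. The number was likewise 3 when the medians were taken without male SJL/J and male P/J and the genes were filtered again.

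Atf3, the transcription factor at the head of the injury program, had a median of 4.02 over the 50 arrays, at the edge of detection. The 25 male arrays ran from 3.57 (A/J) over a median of 4.23 to 7.94 (SJL/J), and the 25 female arrays from 3.67 over 3.90 to 5.06 (NOD/LtJ). Male SJL/J stood alone at 7.94 and male P/J at 6.39, followed by male c57BL/6J at 5.44, and the 22 other male arrays stopped at 5.32. The female arrays of these strains stayed at 3.94 (SJL/J), 4.24 (P/J) and 4.26 (c57BL/6J). Relative to the male median, Atf3 was 3.72 log2 units (13.1-fold in intensity + 1) higher in male SJL/J and 2.16 units (4.47-fold) higher in male P/J. The SJL/J mean exceeded that of the other 24 strains by 1.72 (SE 0.44, limma, adjusted p = 0.0222). This rests on the male array: without it the difference was -0.05. The SE uses a spread shared by all strains, so the p-value does not measure the gap within SJL/J (SD 2.83, n = 2). The strain test over all 25 did not call Atf3 (range 2.21, limma F test, adjusted p = 0.222).

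Atf3 also lay above the median of the sex in both arrays of NOD/LtJ, of which only the female array stood clear of the others. NOD/LtJ had a male level of 5.28 and a female level of 5.06, a mean of 5.17 ± 0.16 (SD, n = 2). Its male array also carried Xist, at 5.19. The female NOD/LtJ array was the highest of the 25 females, clear of the next at 4.29 (DBA/2J). Male NOD/LtJ lay below male SJL/J, P/J, c57BL/6J (5.44) and SWR/J (5.32), with male BTBT T+tf/J (5.07) next below it. With all arrays NOD/LtJ exceeded the other strains by 0.92 and was not called (limma, adjusted p = 0.34). The male SJL/J and male P/J arrays were then left out, a step added after the data had been seen. The range of Atf3 was then 1.44, and NOD/LtJ exceeded the other strains by 1.03. That step removes the highest Atf3 arrays, so its p-values are not given.

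Gadd45a, a stress-induced regulator of growth arrest and DNA demethylation, was well detected in every array. It ran in males from 6.46 over a median of 6.98 to 7.89 (SJL/J) and in females from 6.60 over 7.23 to 7.71 (NZO/HILtJ). Male SJL/J was again the highest array, 0.91 above the male median, while its female partner at 7.07 lay below the female median. Across strains NOD/LtJ was highest at 7.70 ± 0.01 (SD, n = 2), followed by KK/HIJ at 7.58 ± 0.19, and DBA/2J was lowest at 6.70 ± 0.13. Its range of 1.01 missed the threshold (limma F test, adjusted p = 0.0705). Without male SJL/J and male P/J, left out after the data had been seen, the range was also 1.01. That step removes the widest gap between the arrays of a strain, that of SJL/J, so its p-value is not given.

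Sprr1a, a small proline-rich protein of epidermis that injured neurons make and that promotes axon growth, was at background in nearly all arrays. The female arrays ran from 2.72 over a median of 2.76 to 3.56 (NOD/LtJ), and 22 of the male arrays from 2.75 to 3.38. Male SJL/J reached 8.07 and male P/J 6.63, and male c57BL/6J followed at 3.71. The male median of 2.79 is itself background, so no fold is given. The female arrays of both strains sat at the floor, at 2.76 and 2.75. The strain means were therefore 5.41 ± 3.76 in SJL/J and 4.69 ± 2.75 in P/J (SD, n = 2). No test of SJL/J against the other strains is given for Sprr1a, because male SJL/J and male P/J alone brought it into the tested set. The test over all strains did not call it (range 2.67, limma F test, adjusted p = 0.525). Of 8 epidermal markers 2 were tested. Krt5, a basal keratin, was 0.50 above the male median in male SJL/J, at 4.77 the highest of the 50 arrays, and Krt10, a keratin of upper layers, lay at 5.75, within the 5.34 to 6.16 of the 22 other males. In male P/J they lay at 4.32 and 5.63, both within the range of the 22 other males. Epidermal RNA as a source of Sprr1a was not tested further.

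Gap43, a growth cone protein that adult sensory neurons also express at rest, had high levels and a narrow spread. Males ran from 9.64 over 10.06 to 10.60 (RIIIS/J) and females from 9.81 over 10.09 to 10.50 (RIIIS/J). Both arrays of RIIIS/J were the highest of their sex, and male SJL/J at 10.56 was second among males, 0.50 above the male median, while female SJL/J lay at 10.07, close to the female median of 10.09. Gap43 was called for strain, with 10.55 ± 0.07 (SD, n = 2) in RIIIS/J and 9.76 ± 0.07 in PL/J (range 0.79, limma F test, adjusted p = 0.0151). This call held when any 1 array was left out.

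Galanin (Gal), a peptide that a minority of resting sensory neurons carry and that rises strongly after axotomy, was detected in all 50 arrays. Males ran from 5.99 (SWR/J) over 7.18 to 10.26 (SJL/J) and females from 6.50 (KK/HIJ) over 7.23 to 7.82 (SJL/J). Male SJL/J at 10.26 and male P/J at 9.47 stood apart from the 22 other males, which reached 7.86, by 3.08 and 2.29 units above the male median (8.46-fold and 4.89-fold in intensity + 1). Female SJL/J was also the highest of its sex, 0.59 above the female median, whereas female P/J at 7.26 lay close to it. The SJL/J mean exceeded the other 24 strains by 1.84 (SE 0.36, limma, adjusted p = 0.0018). Without male SJL/J the difference was 0.65. The SE uses a spread shared by all strains, so the p-value does not measure the gap within SJL/J (SD 1.72, n = 2).

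Below these arrays Gal kept an order of strains that the sexes shared. A/J had 7.68 in both arrays, c57BL/6J 7.81 and 7.58, and C58/J 7.55 and 7.64, while CBA/J had 6.80 and 6.70 and KK/HIJ 6.75 and 6.50. Without male SJL/J and male P/J, left out after the data had been seen, the range of Gal was 1.33. That step removes wide gaps between the arrays of a strain, so its p-value is not given. With all arrays the strain test called Gal (range 2.56, limma F test, adjusted p = 0.0401). Its adjusted p was near the threshold with all arrays and ended above it, at most at 0.0624, for 33 of the 50 arrays left out in turn.

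Npy, the neuropeptide Y that large sensory neurons begin to make after axotomy, was near background, with a median of 3.11. Females ran from 2.76 over 3.08 to 3.31, and the 22 other males from 3.00 to 3.80. Male SJL/J at 5.35 and male P/J at 4.82 were the only arrays above 4, with female partners at 3.08 and 3.06. As for Sprr1a, SJL/J is not tested against the other strains, and the test over all strains did not call Npy (range 1.26, limma F test, adjusted p = 0.562). Of 3 tested markers of sympathetic neurons, which make NPY without injury, none lay 0.5 or more above the male median in male SJL/J, and Th, the first enzyme of catecholamine synthesis, lay below it (distance -0.72). Their summed level there was 8.30, within the range of the 22 other males (7.18 to 9.54), and Dbh, the enzyme of noradrenaline synthesis, lay at 3.64, below the level of 4. In male P/J 1 of the 3 was raised, and the summed level was 9.29, also within that range. The summed level mainly follows Th, with a mean of 8.34 over all arrays. Chrna3, a nicotinic receptor subunit, had a mean of 5.43 and Dbh of 3.95. Sensory neurons can express Th too, so the sum is no measure of sympathetic neurons alone. Sympathetic RNA as a source of Npy was not tested further.

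Npy2r, the receptor for NPY on sensory neuron terminals, falls outside the joint rise. Males ran from 5.19 (CBA/J) over 6.33 to 7.23 (RIIIS/J) and females from 4.96 (MRL/MpJ) over 6.53 to 7.37 (BTBT T+tf/J). Male SJL/J lay exactly at the male median and was number 28 of the 50 arrays, and male P/J was number 40. Npy2r instead differed between strains, with RIIIS/J at 7.27 ± 0.06 and C58/J at 7.26 ± 0.13 at the top and MRL/MpJ at 5.23 ± 0.38 (SD, n = 2) at the bottom (range 2.04, limma F test, adjusted p = 0.0444). MRL/MpJ lay 1.24 below the other 24 strains (SE 0.32, limma, adjusted p = 0.0249), and both of its arrays, at 5.50 and 4.96, were low. This call was lost with 16 added to the intensity (difference -0.98, under the 1 asked for), with no filter on low levels (adjusted p = 0.0526) and without female MRL/MpJ (-0.85, adjusted p = 0.427). The call over all strains was near the threshold and was lost for 31 of the 50 arrays left out in turn, with an adjusted p of at most 0.111.

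Bdnf, the brain-derived neurotrophic factor, which peptidergic neurons make at rest and large neurons after injury, was detected in all arrays through its brighter probe set. Males ran from 6.36 (SM/J) over 7.39 to 8.54 (SJL/J) and females from 6.06 (SWR/J) over 7.27 to 8.16 (C58/J). Male SJL/J at 8.54 and male c57BL/6J at 8.49 were the highest arrays, 1.15 and 1.11 above the male median, and male P/J at 7.52 was not raised. C58/J had the highest strain mean, 8.11 ± 0.07, and SWR/J the lowest, 6.39 ± 0.47 (SD, n = 2), and Bdnf was called for strain (range 1.71, limma F test, adjusted p = 0.022) with any 1 array left out. The dimmer Bdnf probe set did not differ by the same test (range 0.70, limma F test, adjusted p = 0.618). It lay near the floor of each sex, at medians of 3.33 in males and 4.41 in females. Male SJL/J lay at 4.35 in this probe set, while the other males reached at most 3.41 (MRL/MpJ), with male c57BL/6J at 3.34. The dimmer probe set stood for Bdnf when probe sets were chosen by SD. In that setting male c57BL/6J no longer met the rule of a joint rise.

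Csf1, the macrophage growth factor that injured sensory neurons release towards microglia, ran in males from 4.82 (RIIIS/J) over 5.16 to 6.17 (SJL/J) and in females from 4.75 (RIIIS/J) over 5.14 to 5.77 (SJL/J). As for Gal, SJL/J was the highest strain in both sexes, with a mean of 5.97 ± 0.28 (SD, n = 2) and arrays that did not overlap those of SM/J, the next strain. SJL/J exceeded the other strains by 0.79 (SE 0.13, limma, adjusted p = 0.00036), below the difference of 1 asked for in single strains. Csf1 was called for strain (range 1.19, limma F test, adjusted p = 0.0394), lost this in 24 of the 50 arrays left out in turn, and was not called without male SJL/J and male P/J (adjusted p = 0.24). Its other 3 probe sets were dim: one had a range of 0.31 (limma F test, adjusted p = 0.97, not called), and the other two never reached 4. In male SJL/J none of 7 tested macrophage markers was 0.5 or more above the male median, and their summed level of 9.75 lay within the 8.68 to 10.30 of the 22 other males.

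**Figure D2:**
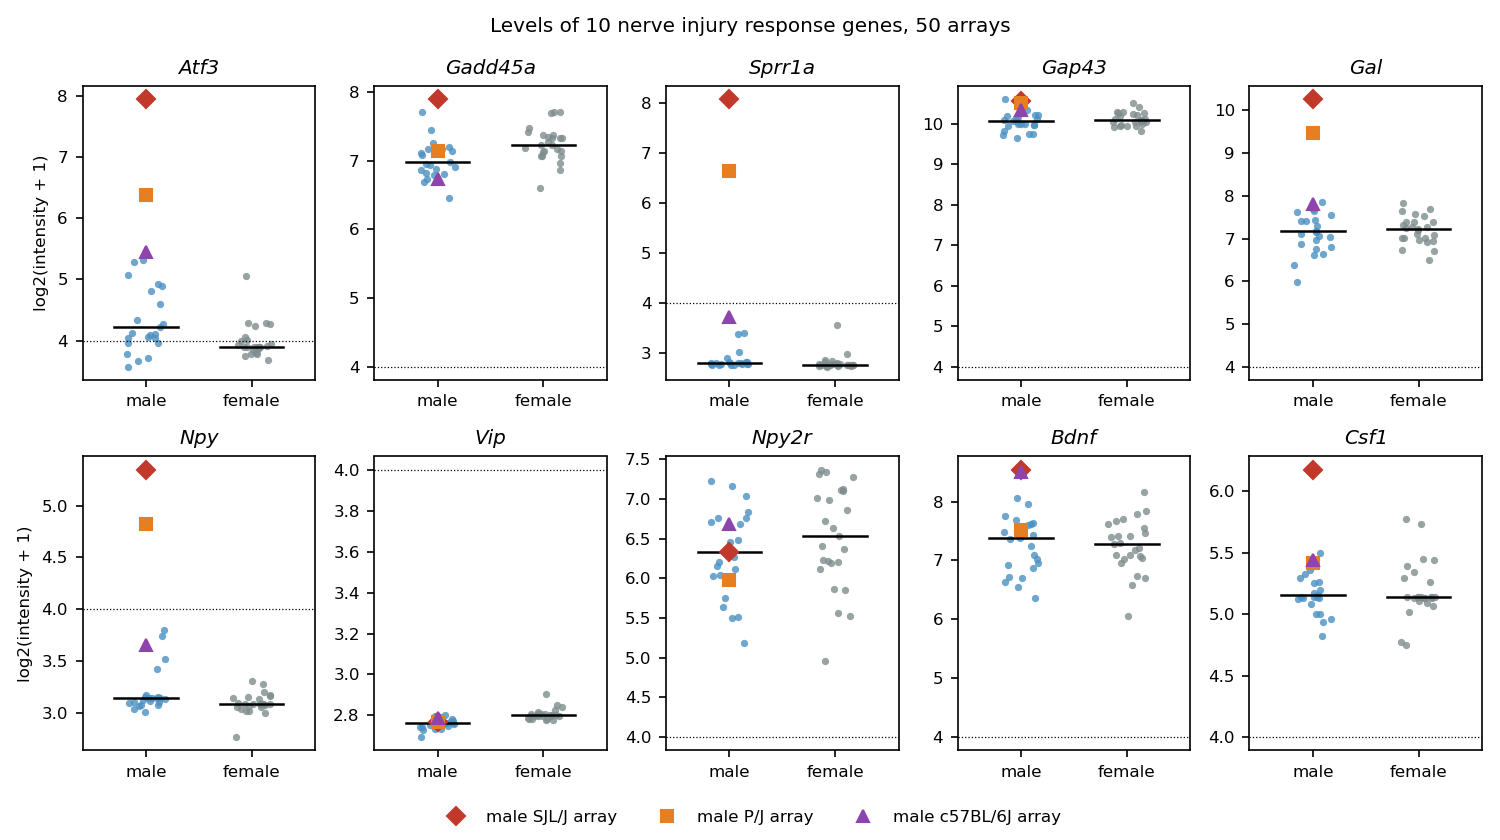
Each panel shows 1 of the 10 genes, with the log2 level of every male (left) and female (right) array as a point, the median of each sex as a bar and the level of 4 as a dotted line. Male SJL/J (diamond), male P/J (square) and male c57BL/6J (triangle) are marked. The scale differs between panels: male SJL/J is the highest point for Atf3, Gadd45a, Sprr1a, Gal, Npy, Bdnf and Csf1, and not for Gap43, Vip or Npy2r.

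Other genes known to rise after axon injury were also high in male SJL/J. Their list was chosen with earlier results of these data known. Of 36 such genes on a fixed list, 24 were tested, and 11 of them lay 0.5 or more above the male median in male SJL/J, 7 by 1 unit or more and none 0.5 or more below. The shares over all tested genes of that array were 3.06%, 0.571% and 3.56%. Their median distance was 0.49, against 0.0014 over all tested genes, and the summed level of the list was 14.08, above all 22 other males (13.42 to 13.78). Nts, the peptide neurotensin, lay at 10.14 against 4.98 to 7.86 in the 22 other males. Flrt3, a membrane protein of neurite outgrowth, lay at 7.85 against at most 7.16, and Vgf, a secreted neuronal peptide precursor, at 9.40 against at most 8.58. The following were picked after their values were seen: Gpr151, an orphan receptor of injured neurons, at 5.74 against at most 3.77, Sox11, a transcription factor of axon growth, at 6.47 against at most 5.95, Stmn4, a tubulin-binding protein, at 6.86 against at most 6.34, and Plaur, the urokinase receptor, at 6.33 against at most 5.90. Jun, a partner of Atf3 and likewise picked, was 0.33 above the male median at 8.95, with 1 of the 22 other males at or above it. Gpr151 lay below the level of 4 in the 22 other males. As for Sprr1a and Npy, its place among the tested genes and in these counts may rest on male SJL/J and male P/J.

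Male P/J and male c57BL/6J each had 4 of the 24 raised (4.03% and 4.05% of all genes), 3 and 2 of them by 1 unit or more (0.723% and 0.785%). Male P/J was high for Nts (9.00), Flrt3 (7.41) and Gpr151 (4.74), each above the 22 other males, with the limit given above for Gpr151. In male c57BL/6J the genes raised by 1 unit or more were Nts (8.30) and, picked after its values were seen, Socs3, an inhibitor of cytokine signalling, at 7.97 the highest of the 50 arrays. Vgf lay 0.81 above the male median there, at 8.87. Female SJL/J had 3 of the 24 raised and 3 lower (6.6% and 4.64% of all genes), with Nts at 6.81 below the female median and Gpr151 at 3.33 close to it. The 3 raised were Vgf, at 8.71 and 0.998 above the female median, and, picked after their values were seen, Stat3, a transcription factor of cytokine signalling (0.61), and Hspb1, a small heat shock protein (0.62). The female arrays of P/J and c57BL/6J had more of the list raised than the male ones. Female P/J had 8 of 24, 2 by 1 unit or more, in an array with 16.9% and 2.89% of all genes so raised. Its summed level was 13.91, beside 13.76 in female SJL/J and 13.63 in female c57BL/6J. The male range is no measure for a female array, because the lowest intensities of the sexes do not overlap. Female c57BL/6J had 5 of 24, none by 1 unit, against 7.6% of all genes. The deviations of the male arrays are all taken from the same male medians and so share them.

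**Figure D3:**
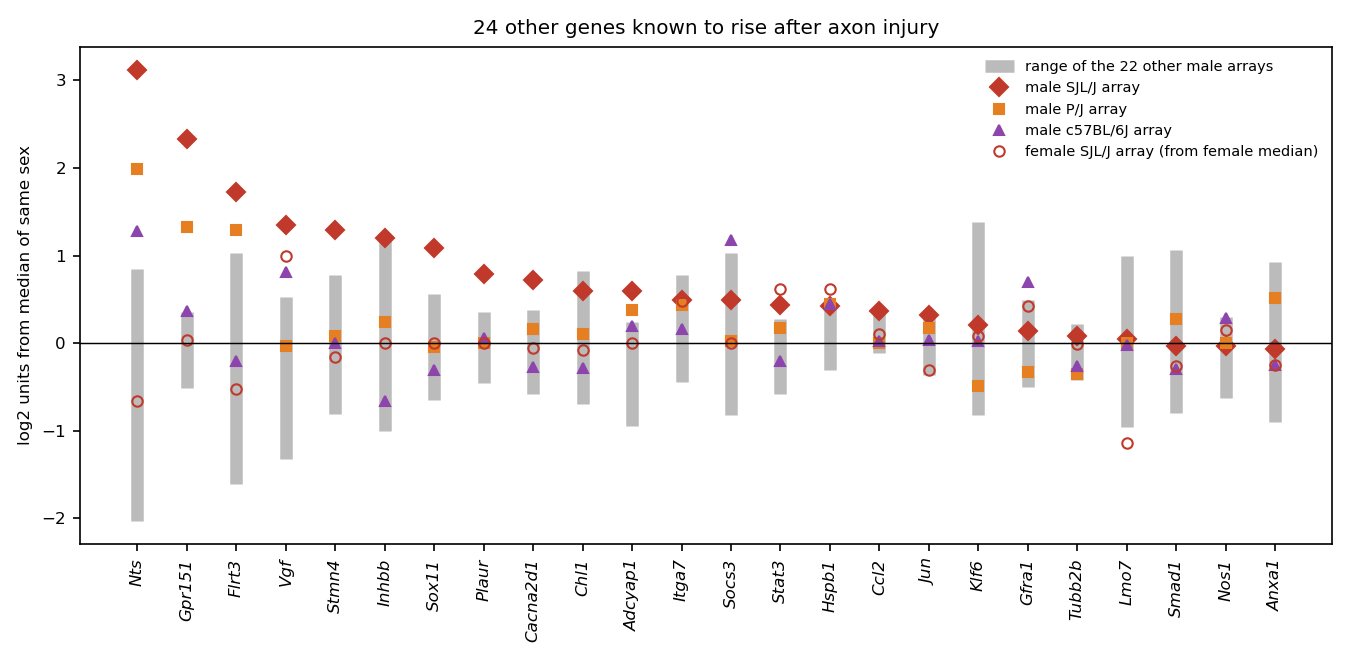
Each column is 1 of the 24 other tested genes that rise after axon injury, with the log2 distance from the median of the same sex for male SJL/J, male P/J, male c57BL/6J and female SJL/J, and a grey bar for the range of the 22 other male arrays. Male SJL/J lies above the grey bar for Nts, Gpr151, Flrt3, Vgf, Stmn4, Sox11 and Plaur, among others, and female SJL/J near or below 0 for these except Vgf.

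Genes that axon injury lowers in sensory neurons were not low in male SJL/J. Of 17 tested, Npy1r, an NPY receptor, lay 1.92 above the male median and Kcns1, a potassium channel subunit, 0.71 below (distance -0.71), the others lay within 0.5 of it, and the median distance was 0.11. Immediate early genes, which dissection or handling can raise, had 1 of 10 raised (Fosl2, an AP-1 subunit, by 1.12) and 1 lower (Btg2, an antiproliferative gene, distance -1.84). None of the 7 sensory neuron markers lay 0.5 or more from its male median there. Of the markers of adjacent tissues and other cells, muscle (6 tested), liver (4), blood (4), macrophages (7), satellite glia (5), fat (2), Schwann cells (2), epidermis (2) and sympathetic neurons (3) had none raised. Krt5, of epidermis, lay just under the 0.5 asked for and, as given above, was at its highest level of all arrays. Spinal cord had 2 of 4 raised with a summed level of 7.58 within that of the 22 other males (6.50 to 8.32). In the same array 1 marker each of satellite glia, muscle, fat and sympathetic neurons lay 0.5 or more below the male median, and the summed level of the Schwann cell markers, 14.586, lay just below the 22 other males (14.591 to 15.005).

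Male c57BL/6J and male P/J were described by the same lists. In male c57BL/6J all 6 muscle markers lay at least 1 unit above the male median (summed level 10.41, in the 22 other males 6.99 to 11.62), both fat markers, 2 of 4 blood and 2 of 7 macrophage markers were raised, and 3 of 5 satellite glia markers lay 0.5 or more below, as did 8.67% of all genes. In male P/J both fat markers, 2 of 4 blood markers and 3 of 4 spinal cord markers were raised, with summed levels of 8.85, 10.57 and 7.84 that lay within those of the 22 other males. The part of these tissues in the members' values was not tested, in male SJL/J or in these arrays. The Gapdh 3' minus 5' signal, a measure of RNA quality, was -0.51 in male SJL/J, -0.65 in male P/J and -0.48 in male c57BL/6J, below the highest arrays (0.60 in male BTBT T+tf/J and 0.34 in female P/J).

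The size of the members in male SJL/J can be read against all genes of that array. By distance from the male median among 11204 tested genes, Atf3 was number 2, Gal 5, Bdnf 36, Csf1 62 and Gadd45a 80. Sprr1a was number 1 and Npy 10, but their male medians lie at background, so their places are nominal. Besides members, 7 genes lay 2 or more units above their male median, which were picked by this value. Nts, Gpr151 and Fst, a secreted inhibitor of activin, were high in the male array alone, with Fst at 7.14 in the male array and at the female median, 4.45, in the female one. Gpr151 lay below the level of 4 in the 22 other males, so its place is nominal as well. Bcat2, an enzyme of branched-chain amino acid metabolism, Tlr1, a receptor of innate immunity, Mgst2, a glutathione transferase, and Nell1, a secreted protein, were high in both SJL/J arrays, by 2.25 to 3.10 in the female.

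Over all strains, the strain test called 5 of the 9 tested members (Bdnf, Gap43, Csf1, Gal and Npy2r), or 55.6%, against 26.1% of all tested genes. The 9 include Sprr1a and Npy, which were tested only through male SJL/J and male P/J. The count fell to 1 with no filter on low levels and to 2 with no sex term. Without male SJL/J and male P/J, left out after the data had been seen, Sprr1a and Npy were no longer tested. That step removes wide gaps between the arrays of a strain in these same members. A count of members called without these arrays is therefore no result about the members and is not given. When strains were ordered by their mean, most neighbours could not be told apart: the arrays of 22 of the 24 neighbouring pairs overlapped for Gal, Bdnf, Csf1, Gap43 and Npy2r, and all 24 for Atf3, Sprr1a, Npy and Gadd45a. The typical SD within a strain was 0.18 for Gal, 0.20 for Bdnf, 0.10 for Csf1 and Gap43 and 0.24 for Npy2r.

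**Figure D4:**
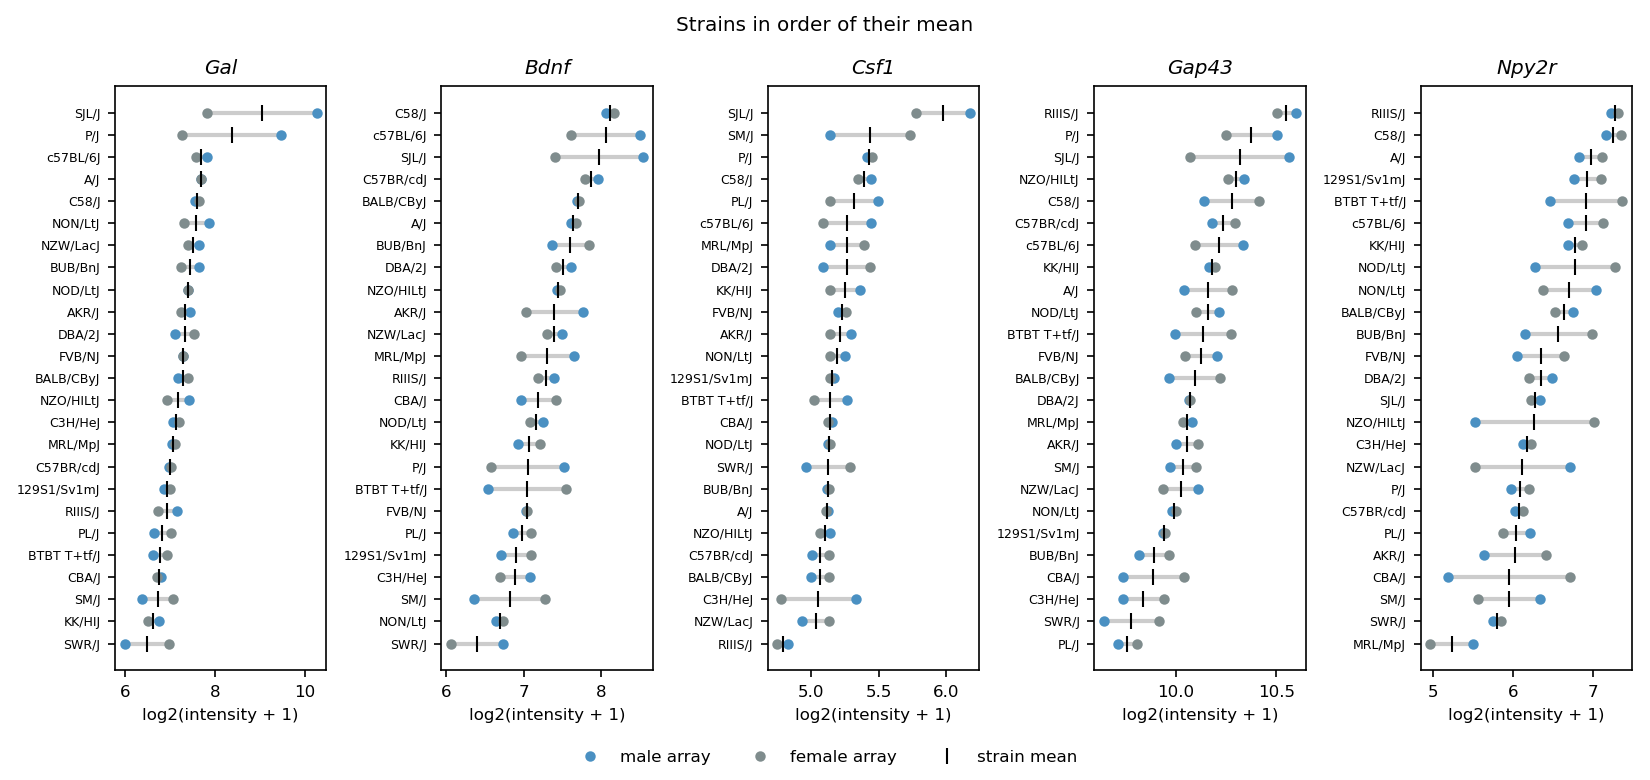
For the 5 members called for strain, the 25 strains are ordered by their mean (tick), with the male and the female array as points joined by a line, on the log2 scale. The long lines of SJL/J and P/J for Gal contrast with the short ones of RIIIS/J for Gap43 and Npy2r and of C58/J for Bdnf.

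Single strains stood apart from the other 24 by at least 1 log2 unit in 5 pairs of member and strain by the limma contrast. Those of SJL/J with Sprr1a and Npy follow from how these members came to be tested, and the Npy pair was also lost with 16 added to the intensity, with no filter and with a filter above 5. The 3 others were SJL/J, higher for Gal and Atf3 (0.411% of all genes were higher in SJL/J), and MRL/MpJ, lower for Npy2r (0.5% of all genes were lower in MRL/MpJ). Over all genes and strains 0.854% of pairs were called. The SJL/J calls rested on the male array. Without it, 3 pairs were called: the pair of Npy2r and MRL/MpJ, and higher Gal (1.18, limma, adjusted p = 0.0141) and Atf3 (1.14, adjusted p = 0.0219) in P/J. Without both male SJL/J and male P/J, left out after the data had been seen, the difference was -1.23 for Npy2r in MRL/MpJ and 1.03 for Atf3 in NOD/LtJ.

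The male and the female array of a strain agreed on the order of strains for 2 of the 9 members (22.2%, against 18.6% of all tested genes), a share near that of all genes. For Gal, Pearson's r over 25 strains was 0.60 (permutation p = 0.0012, adjusted p = 0.0122; Spearman's rho = 0.73, adjusted p = 0.0023), and r was 0.63 without SJL/J and P/J, the strains farthest from the male median. For Gap43 r was 0.61 (permutation p = 0.00094, adjusted p = 0.0102; rho = 0.58, adjusted p = 0.0275), and 0.60 without RIIIS/J and SJL/J. For Gal and Gap43 the call was lost without 1 strain, SJL/J (adjusted p = 0.0771) and RIIIS/J (adjusted p = 0.0594) respectively.

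The other members did not reach an adjusted p under 0.05, with r of 0.46 for Bdnf and Csf1, 0.39 for Npy2r, 0.38 for Gadd45a, 0.33 for Atf3, -0.10 for Npy and -0.11 for Sprr1a. Without SJL/J and P/J, which were left out after the data had been seen, 5 of the 7 members still tested passed, against 19.7% of all tested genes: Atf3 (r = 0.51), Bdnf (0.53) and Gadd45a (0.58) besides Gal (0.63) and Gap43 (0.69). The Csf1 value fell to 0.05. The gap between the arrays of a strain was widest in SJL/J for Sprr1a (5.32, male higher), Atf3 (4.0), Gal (2.44), Npy (2.26), Bdnf (1.14), Gadd45a (0.82) and Gap43 (0.49), and P/J came next among strains with a higher male array for Sprr1a (3.89), Gal (2.21), Atf3 (2.14), Npy (1.76), Bdnf (0.94) and Gap43 (0.25).

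**Figure D5:**
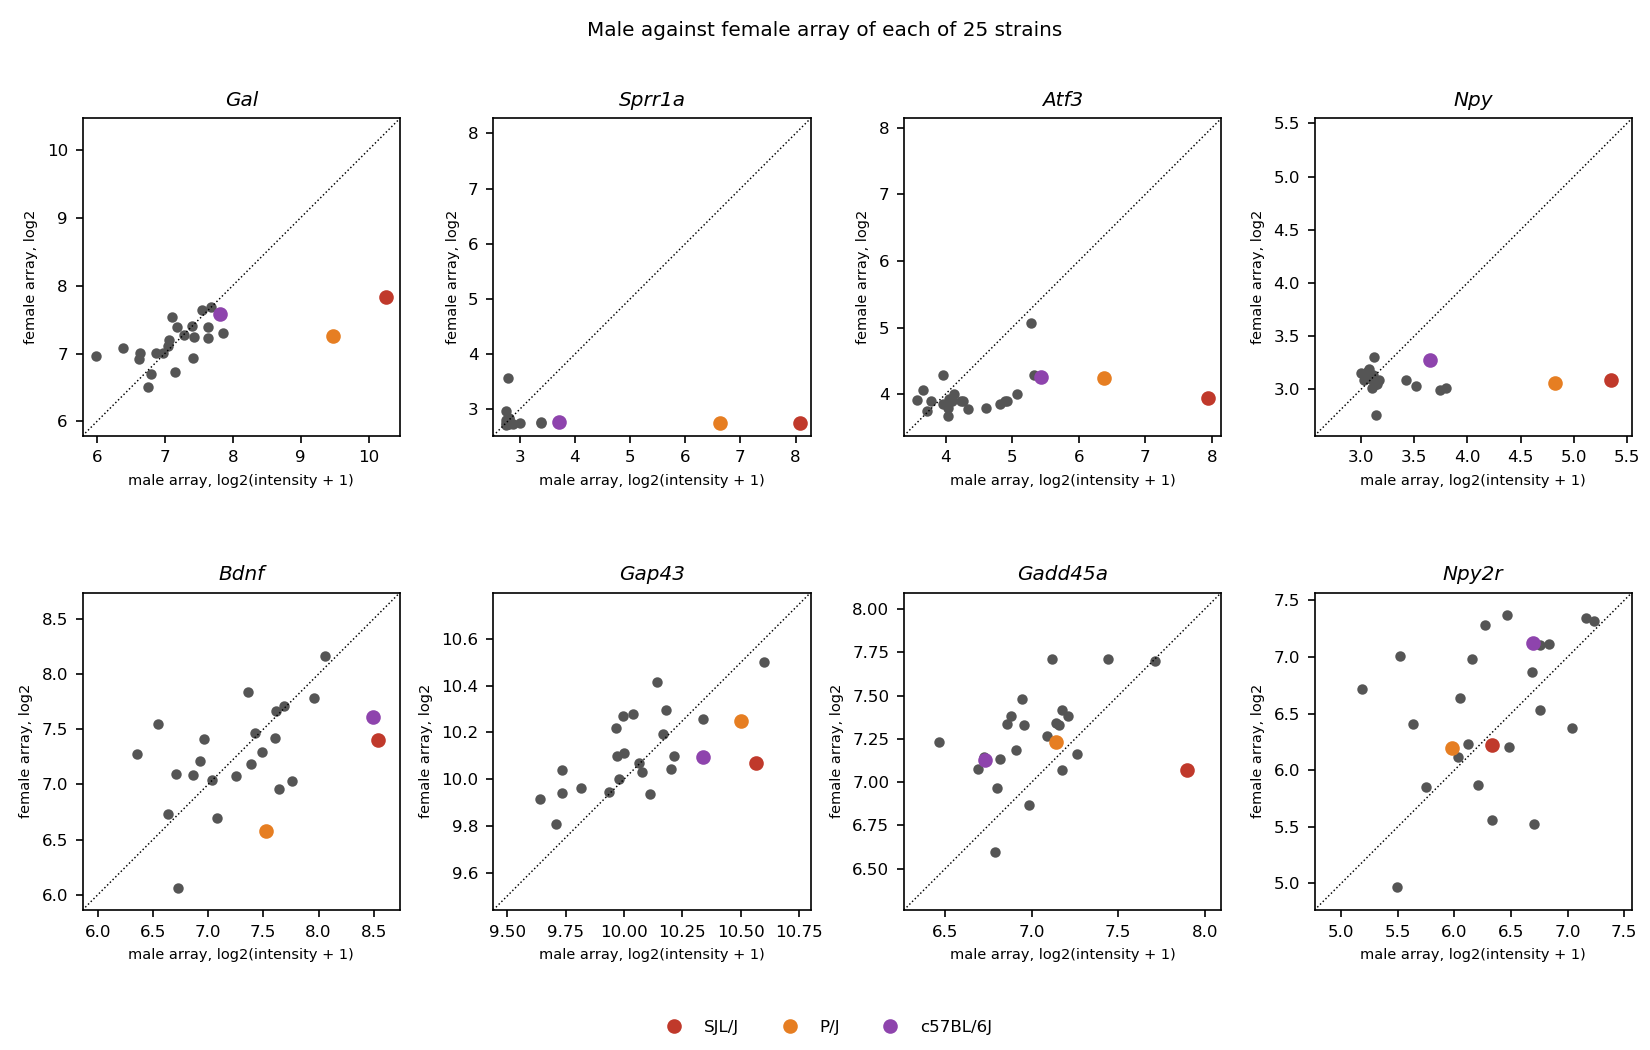
Each point is 1 of 25 strains, with its male array on the horizontal and its female array on the vertical axis, both as log2 levels, and the dotted line marks equal levels. SJL/J and P/J lie far to the right of the line for Gal, Sprr1a, Atf3 and Npy, while the other strains follow the line for Gal and Gap43.

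Of 36 pairs of tested members, 6 were called for a relation over the 25 strain means (limma fit of all other probe sets on a member), and each of these holds Sprr1a or Npy. Both were tested only because male SJL/J and male P/J are high, so these values are a description and no sign of joint movement beyond these arrays: Sprr1a with Npy (r = 0.93), Gal (0.83), Atf3 (0.81) and Csf1 (0.74), and Npy with Gal (0.74) and Atf3 (0.73). Over all pairs of a member and any other probe set, the same fit called 0.0235%. Of the 21 pairs without Sprr1a and Npy, limma called 0 with all strains, with 7 at an unadjusted p under 0.05. Without SJL/J and P/J, Sprr1a and Npy left the tested set, and 0 of the 21 other pairs was called in limma, with 3 at an unadjusted p under 0.05 (Gal and Bdnf, Bdnf and Gap43, Gap43 and Npy2r). In the same strains r fell to 0.44 for Sprr1a with Npy, 0.43 with Gal, 0.51 with Atf3 and 0.06 with Csf1, and to 0.09 and 0.14 for Npy with Gal and Atf3. Leaving out SJL/J alone or P/J alone also takes Sprr1a and Npy out of the tested set, and 0 of 21 pairs was then called, with 3 and 6 at an unadjusted p under 0.05, and without C57BR/cdJ 3 of 36 pairs were called. The pair of Gal and Bdnf, not called in the fit, had r = 0.51 with all strains and 0.61 without these strains.

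The genes with patterns most like a called member were taken by r over the 25 strain means, as a description. For Gal they were Sprr1a (0.83), Gpr151 (0.80) and Npy (0.74), which dropped to 0.43, 0.37 and 0.09 without SJL/J and P/J. Sprr1a, Gpr151 and Npy all lay below the level of 4 in the 22 other males. For Csf1 they were Prc1, a mitotic spindle protein (0.78), Sprr1a (0.74) and Mmp13, a collagenase (0.73), which dropped to 0.43, 0.06 and 0.33. For Bdnf they were Amz2, a metallopeptidase (0.74), Mkln1, the ligase subunit muskelin (0.71), and Orc6, a subunit of the origin recognition complex (0.70). For Gap43 they were Rufy2 (0.74), Tcaf1, a TRP channel partner (0.71), and Cox15, an enzyme of heme A synthesis (0.69). For Npy2r they were Prdm8, a transcriptional repressor of neurons (0.78), Ralgps2, an activator of Ral GTPases (0.76), and Dcun1d4, a neddylation factor (0.73). The values of these 9 neighbours of Bdnf, Gap43 and Npy2r stayed at 0.67 or above without SJL/J and P/J.

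Between the sexes Atf3 was higher in males by 0.60 (SE 0.17, limma, adjusted p = 0.0041) and Gadd45a was lower in males by 0.21 (difference -0.21, SE 0.06, adjusted p = 0.0066). The same fit also called Npy (male minus female 0.28), but Npy was tested only through the 2 male arrays, so this call carries no weight. It was lost with 16 added to the intensity and without any of 5 arrays, both of CBA/J, both of NZO/HILtJ and female P/J (limma, adjusted p = 0.0536 to 0.0586). The 3 calls stand against 59.0% of all tested genes called for sex. The lowest intensities of the male arrays (1.629 to 1.655) and of the female arrays (1.726 to 1.744) did not overlap, so sex and a difference in processing between the sets of arrays cannot be told apart. Without male SJL/J and male P/J the Atf3 difference was 0.38 (limma, adjusted p = 0.0014) and Npy was not tested.

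Genes of the fixed lists were tested for strain in the same fit. Of the other genes raised by axon injury, 9 of 24 were called for strain (37.5%, against 26.1% of all tested genes), with a median range of 1.18 against 0.82. Nts ranged by 3.60 (highest SJL/J, lowest FVB/NJ), Flrt3 by 2.22 (highest P/J, lowest NON/LtJ) and Vgf by 2.09 (highest SJL/J, lowest RIIIS/J). Of the genes that injury lowers in neurons, 13 of 17 were called (76.5% against 26.1%, median range 0.95). Asic3, an acid-sensing channel, ranged by 4.08 between BTBT T+tf/J and CBA/J, Sst, the peptide somatostatin, by 3.20 between BTBT T+tf/J and C57BR/cdJ, and Kcns1 by 1.92 between MRL/MpJ and SJL/J.

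Of the immediate early genes 3 of 10 were called (30%, against 26.1% of all tested genes; median range 1.05 against 0.82), a share near that of all genes: Btg2 by 2.43, Fosl2 by 1.54, highest in SJL/J, and Ier3, a stress response gene, by 1.12. Of the peptide and receptor partners of the members 3 of 8 were called (37.5%, against the same 26.1%, with a median range of 0.75 below the 0.82 of all genes): Npy1r by 1.54, Gadd45g, a relative of Gadd45a, by 1.08 and Ngfr, the p75 neurotrophin receptor, by 0.79.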

How the data were processed

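The deposited tables hold linear intensities. Per the submitters' processing notes, the authors computed these intensities with GCRMA under R 2.6.2. The genome build and further settings are not given in the sources used here. Control probe sets (64) were left out, and genes were named through GEO's platform annotation for the 34945 probe sets with 1 symbol. Here log2(intensity + 1) was tested with limma 3.58.1 in R 4.3.3: a moderated F test over 25 strains with sex as an additive term, sex with strain as a block, each strain against the other 24 (difference of at least 1), and a fit on a member's strain mean. P-values were adjusted by Benjamini-Hochberg over all probe sets tested (over probe sets and strains together for single strains), and called under 0.05. The male and the female pool are a strain's only replicates, and no label says that they are independent dissections, so p-values measure the spread between these pools only. Correlations used two-sided permutation tests with 100000 resamples, whose smallest p is 1e-05.

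The members and gene lists were chosen with earlier results of these data known. Named are the members, up to 3 called genes per list by range, and the 3 genes of highest r with each called member. All other genes named, such as Jun, Socs3, Krt5, Krt10, Dbh, Th, Scn10a, Uchl1, Xist and Eif2s3y, fall outside this rule and were picked with their values known. The scripts were tested on simulated data. Alternatives were other pseudocounts, filters, normalization, probe set choice and model terms, and each array left out in turn. The number of arrays limits the precision.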

Additional observations from a re-analysis of the deposited data

How the results depend on the processing

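Of 5 members called for strain, 1 was called with no filter and 2 with no sex term, and 2 to 7 with each array left out in turn, the 7 without female SJL/J. Agreement of the sexes held for 1 to 2 members when each strain was left out, the 1 without RIIIS/J, and for 5 without SJL/J and P/J. Pairs of member and strain numbered 3 with a pseudocount of 16, 3 with no filter, 2 without male SJL/J and male P/J, and 3 to 8 with each array left out, the 3 without male SJL/J or male P/J and the 8 without female SJL/J. The pair of Npy2r and MRL/MpJ was lost with a pseudocount of 16, with no filter and without female MRL/MpJ, and those of SJL/J with Gal and Atf3 without male SJL/J. Arrays with a joint rise numbered 1 with a pseudocount of 16, 1 with a filter above 5, 1 with probe sets chosen by SD, 1 at 1 log2 unit, 0 without male SJL/J and male P/J, and 0 to 2 with each array left out, the 0 without male SJL/J and 1 without male c57BL/6J or male P/J. Pairs of members numbered 3 with a filter above 5, 0 without SJL/J and P/J (limma, 3 at an unadjusted p under 0.05), and 0 to 7 with each strain left out. The rho of Sprr1a between the sexes was 0.020, opposite in sign to r. The causes were not tested, except that a filter above 5 removes Npy from the tests. Leaving out male SJL/J or male P/J removes both Sprr1a and Npy. Counts for sex and for the gene lists stayed within 1.5 times in all settings tried.

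With 1 array per strain and sex, a high array cannot be set against a repeat of the same pool. Vip, and Sprr1a and Npy outside the arrays named, lie at the floor of the signal, where values have no order. Quantities on the log2(intensity + 1) scale understate the change of such dim genes.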
